A study of Mus musculus with 6 samples.

Results

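The 8 genes described here mark the cholinergic motor neurons of the spinal cord: Chat, Slc5a7, Slc18a3, Ache, Chodl, Mnx1, Isl1 and Esrrb. They were taken from the deposited count table by gene name, 8 of 54532 genes, and all 8 passed the filter on low counts. The cord came from C57BL/6J mice after spinal cord injury, in 2 groups of 3 libraries, which the series' design calls SCIT (rotarod training after the injury) and SCI (injury without that training). The rotarod is a turning rod on which a mouse has to keep walking. The injury is common to both groups, no uninjured cord is part of the comparison, and the labels put all 6 libraries at day 28 after training. Of the level of the cord taken, the kind of injury and the age of the mice, the sources used here say nothing.

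Motor neurons are the only neurons whose axons leave the cord to drive skeletal muscle, and they signal with acetylcholine. Choline acetyltransferase (Chat) makes the transmitter from choline, which the high-affinity choline transporter (Slc5a7) brings back into the terminal. The vesicular acetylcholine transporter (Slc18a3) loads it into vesicles and acetylcholinesterase (Ache) breaks it down after release. Mnx1 and Isl1 encode homeodomain transcription factors that set motor neuron identity in the embryo, Chodl encodes chondrolectin, a lectin enriched in fast motor neurons, and Esrrb encodes an estrogen-related receptor found in gamma motor neurons, which innervate muscle spindles. Cholinergic interneurons and preganglionic autonomic neurons of the cord share the acetylcholine genes, and sensory ganglion neurons share Isl1.

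Total counts were 15814104 to 26092014 per library, and a floor of 3 counts equalled 0.116 to 0.192 CPM (counts relative to library size, scaled by TMM factors). Every member lay above that floor in each library. With edgeR's quasi-likelihood test and Benjamini-Hochberg adjustment, 10 of 16909 genes (0.0591%) passed an adjusted p of 0.05, 1 higher and 9 lower in trained cord. Nothing in the labels says that the 3 libraries of a group came from separate mice, so the p-values measure the spread between these libraries, which may be technical. In bulk cord, fewer cells of a type and less RNA per cell cannot be told apart.

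Chat and Slc18a3 share 1 locus on chromosome 14. In the deposited table, whose coordinates match GRCm38, Chat (ENSMUSG00000021919) spans bases 32408203 to 32465989 and Slc18a3 (ENSMUSG00000100241) spans 32462438 to 32464850, both on the minus strand. Slc18a3 lies inside intron 1 of Chat in 4 annotated transcripts (Chat-201, Chat-202, Chat-203 and Chat-208), and the annotated exons of the 2 genes share 0 bases. An antisense gene on the other strand, Gm2990, overlaps the start of Chat's span and had 32 to 69 counts, with 0 bases shared between exons. Slc5a7 (ENSMUSG00000023945) lies on chromosome 17 at 54273590 to 54299034, minus strand, and Chodl (ENSMUSG00000022860) on chromosome 16 at 78930948 to 78951733, plus strand, and no other gene in the table overlaps either. Ache (ENSMUSG00000023328) lies on chromosome 5 at 137287519 to 137294466, plus strand, and shares 98 exon bases with Gm42456, a noncoding gene of the other strand that had 0 to 8 counts. Mnx1 (ENSMUSG00000001566) lies on the same chromosome at 29473034 to 29478470, minus strand. Isl1 (ENSMUSG00000042258) is on chromosome 13 at 116298281 to 116309689, minus strand, and Esrrb (ENSMUSG00000021255) on chromosome 12 at 86361117 to 86521628, plus strand.

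The bases just before these 4 genes are shown because Chat and Slc18a3 have neighbouring starts and because Slc5a7 and Chodl are the members whose groups did not overlap. They were taken from RefSeq windows on GRCm38.p6 and read 5′ to 3′ on the strand of the gene: chr14:32465990-32466159 for Chat, chr14:32464851-32465100 for Slc18a3, chr17:54299035-54299284 for Slc5a7 and chr16:78930698-78930947 for Chodl. Capitals mark matches on either strand to 4 short motifs, none of which overlapped another here. The first is TATAA, the core of a TATA box, which places the start of transcription in some genes. The second is GGGCGG, the GC box bound by Sp1 and related factors in many promoters rich in G and C. The third is TGACG, a core of the response element through which cyclic AMP and CREB act. The fourth is CACGTG, the E-box letters bound by several helix-loop-helix factors. TAATTA, a core that many homeodomain proteins bind, was searched as well.
Chat: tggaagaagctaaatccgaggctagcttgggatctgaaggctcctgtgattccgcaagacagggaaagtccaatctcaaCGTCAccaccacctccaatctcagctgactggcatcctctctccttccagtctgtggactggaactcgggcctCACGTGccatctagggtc
Slc18a3: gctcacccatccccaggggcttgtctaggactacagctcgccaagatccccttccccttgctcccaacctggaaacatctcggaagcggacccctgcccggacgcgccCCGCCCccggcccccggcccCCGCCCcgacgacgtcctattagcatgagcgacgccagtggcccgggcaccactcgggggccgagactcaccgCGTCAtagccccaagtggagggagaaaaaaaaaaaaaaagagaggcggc
Slc5a7: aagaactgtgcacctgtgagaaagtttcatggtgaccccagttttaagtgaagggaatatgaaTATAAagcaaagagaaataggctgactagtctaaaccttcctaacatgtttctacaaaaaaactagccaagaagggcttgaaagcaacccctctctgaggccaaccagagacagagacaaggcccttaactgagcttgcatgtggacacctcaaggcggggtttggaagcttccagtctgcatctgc
Chodl: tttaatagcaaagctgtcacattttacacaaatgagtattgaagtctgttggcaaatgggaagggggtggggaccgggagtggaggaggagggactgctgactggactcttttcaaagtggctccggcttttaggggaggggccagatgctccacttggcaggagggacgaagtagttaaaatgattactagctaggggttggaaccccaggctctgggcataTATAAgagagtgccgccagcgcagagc
The neighbouring genes differed in base composition. The Slc18a3 window held 2 GC boxes, a match found in 32.7% of all 250-base windows, and was 66% G and C, against a median of 52.4%. The Chat window, 170 bases long and 54.7% G and C, held 0 GC boxes but 1 E-box, found in 3.38% of all windows cut to that length. Both held 1 match to TGACG, found in 9.86% of 170-base and 17.8% of 250-base windows. Slc5a7 and Chodl each held 1 TATAA, found in 22.8% of 250-base windows, and none of the other letters searched, and TAATTA was in none of the 4 windows. These matches describe letters only.

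No member passed the test between trained and untrained cord, in edgeR, DESeq2 or limma-voom. Of the 8 members, 7 had a negative log2 fold change (trained over untrained), where 52.0% of all genes tested did, and Ache had a positive one. The median over the members was -0.22, and over all genes tested -0.0080. At an unadjusted p below 0.05 in edgeR there were 2 members, Slc5a7 and Chodl, both lower in trained cord, where 10.0% of all genes had such a p in either direction and 5.55% in that direction. With 1 library left out, both kept an unadjusted p below 0.05 without trained replicate 1 or 3, Slc5a7 lost it without trained replicate 2 or untrained replicate 1, and neither had it without untrained replicate 2 or 3. Another member joined them without trained replicate 1 (Chat, lower) and without trained replicate 3 (Ache, higher). In the same 2 members, and no other, every trained library lay below every untrained one, which held for 8.69% of all genes (16.8% in either direction).

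**Figure D1:**
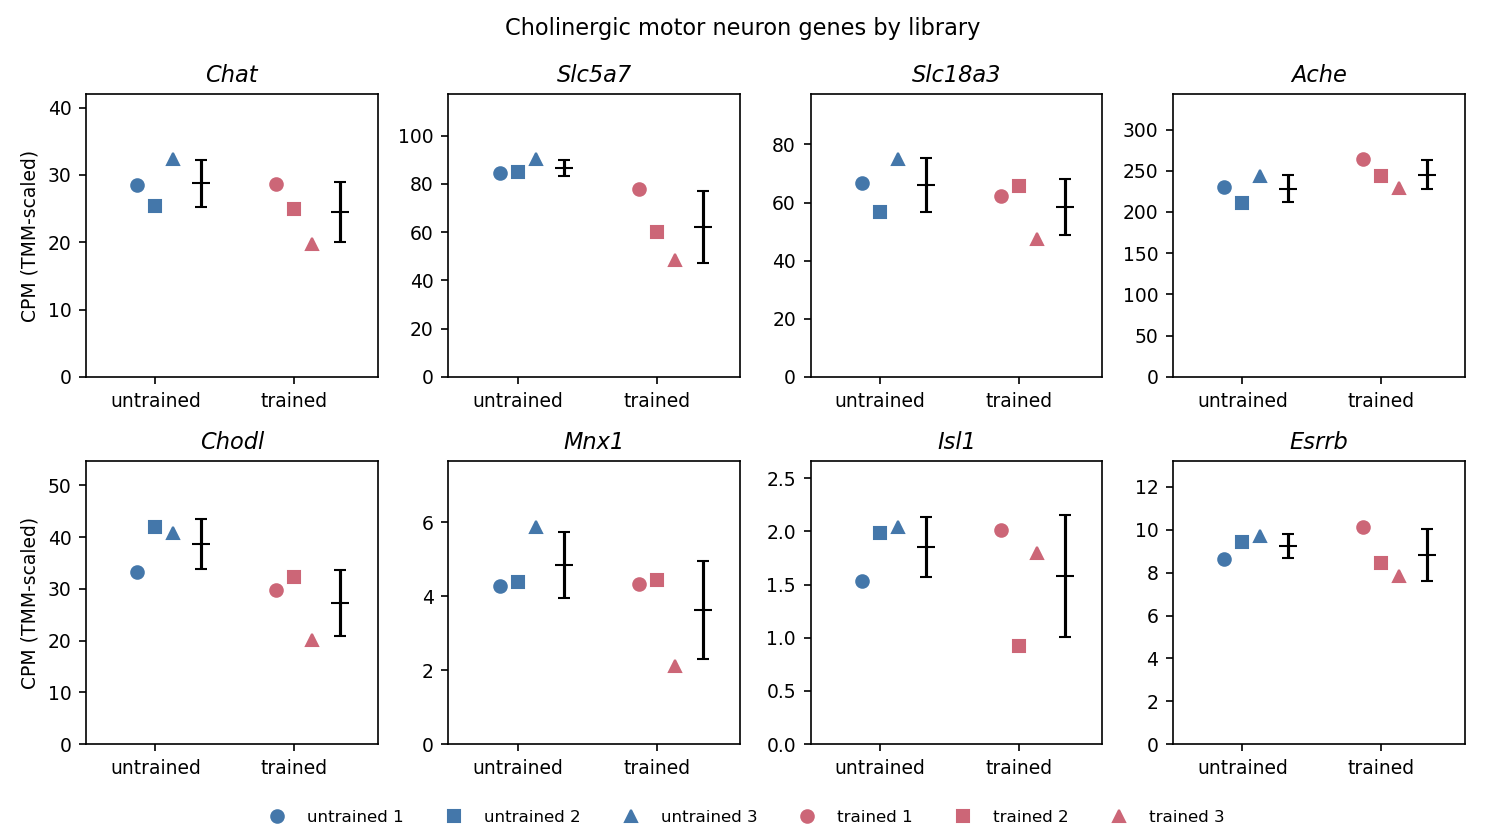
TMM-scaled CPM of the 8 genes in each library, with untrained libraries in blue and trained libraries in red; black marks show the group mean ± SD (n = 3) and each vertical axis starts at 0. The groups do not overlap for Slc5a7 and Chodl, and trained replicate 3 is the lowest library in 6 of the 8 panels.

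Slc5a7, the transporter that returns choline to the cholinergic terminal, read 77.9, 60.2 and 48.3 CPM in trained replicates 1, 2 and 3, against 84.6, 85.0 and 90.2 CPM in untrained replicates 1, 2 and 3. The untrained libraries lay close together, and the trained ones spread downwards from just under them. The means were 62.2 ± 14.9 and 86.6 ± 3.15 CPM (SD, n = 3 per group), so that the trained mean was 71.8% of the untrained one. The log2 fold change was -0.47 ± 0.16 (SE), with an edgeR p of 0.0246 and an adjusted p of 0.426. It was -0.67 (edgeR adjusted p = 0.00994) when trained replicate 1, the trained library nearest the untrained group, was left out. Without trained replicate 3 it was -0.30, with an adjusted p of 0.171 in edgeR.

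Chodl, the fast motor neuron lectin gene, read 29.7, 32.2 and 20.1 CPM in trained replicates 1, 2 and 3, against 33.2, 42.1 and 40.8 CPM in untrained ones. Trained replicate 2 and untrained replicate 1 were almost level, and trained replicate 3 lay well below the rest. The means were 27.3 ± 6.40 and 38.7 ± 4.79 CPM, and the trained mean was 70.7% of the untrained one. The log2 fold change was -0.50 ± 0.18 (SE), with an edgeR p of 0.0250 and an adjusted p of 0.426. Without trained replicate 3 it was -0.30, with an adjusted p of 0.186 in edgeR.

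Chat, which makes acetylcholine, read 28.7, 25.0 and 19.7 CPM in the trained replicates, against 28.5, 25.4 and 32.3 CPM in untrained ones. Its groups overlapped, since only trained replicate 3 lay clearly below the untrained libraries. Its log2 fold change was -0.23 ± 0.14 (SE), and -0.074 without trained replicate 3 (edgeR adjusted p = 0.613 and 0.821).

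Slc18a3, the vesicle transporter gene inside the first intron of Chat, read 62.4, 65.5 and 47.6 CPM in the trained replicates, against 66.7, 56.6 and 74.9 CPM in untrained ones. Untrained replicate 2 lay below 2 of the 3 trained libraries. The log2 fold change was -0.17 ± 0.14 (SE), and -0.027 without trained replicate 3 (edgeR adjusted p = 0.726 and 0.941). Read counts of Chat per count of Slc18a3, which do not depend on how libraries are scaled, were 0.459, 0.382 and 0.415 in trained and 0.428, 0.449 and 0.432 in untrained cord. The 2 genes of the locus therefore kept a similar ratio in all 6 libraries, and the groups overlapped. Counts of Slc5a7 per count of Chat were 2.72, 2.40 and 2.45 in trained and 2.97, 3.34 and 2.79 in untrained cord. Of 5 such ratios between members, only this one had groups that did not overlap. Slc5a7 itself did not overlap, and the ratios were chosen after the values were seen. The share of all gene pairs without overlap was not computed. Counts of Slc5a7 per count of Slc18a3, the other gene of the locus, were 1.25, 0.918 and 1.02 against 1.27, 1.5 and 1.2, and overlapped. Counts of Chodl per count of Chat also overlapped, at 1.04, 1.29 and 1.02 against 1.16, 1.65 and 1.26. The remaining ratio, Slc5a7 per Chodl, overlapped as well, at 2.62, 1.87 and 2.40 against 2.55, 2.02 and 2.21.

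Ache, acetylcholinesterase, was the one member with a higher mean in trained cord. It read 263.9, 243.4 and 228.6 CPM in the trained replicates, against 230.5, 210.8 and 243.6 CPM in untrained ones, and the groups overlapped. The log2 fold change was 0.10 ± 0.08 (SE; edgeR adjusted p = 0.705). The enzyme is not limited to motor neurons, being made also in other neurons, in muscle and in the red cell lineage. The 6 red blood cell genes of a marker list summed to 62.5 to 149.3 CPM with training and 38.3 to 69.9 CPM without it. A skeletal muscle list of 9 genes summed to 98.7 to 121.7 and 94.4 to 112.2 CPM. Most of that sum was Pvalb, which neurons also express, at 91.3 to 112.4 and 86.1 to 108.3 CPM. Of the muscle list 4 genes were tested, with 4 positive log2 fold changes and 0 past the test. Among them 1, Tnnt3, lay higher without overlap, where 16.8% of all genes did not overlap in either direction. Of the muscle genes, Ckm, Myh1 and Myl1 were at 0 counts in untrained replicate 3, and Myh2 and Myh4 in untrained replicate 2. The part of these cells in the Ache level was not tested.

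Mnx1, the motor neuron homeobox gene, read 4.34, 4.45 and 2.11 CPM in the trained replicates (112, 72 and 34 counts), against 4.26, 4.39 and 5.88 CPM in untrained ones (78, 73 and 92 counts). Trained replicate 3 had less than any other library and untrained replicate 3 more, with the other 4 libraries nearly level. The log2 fold change was -0.40 ± 0.27 (SE), and -0.12 without trained replicate 3 (edgeR adjusted p = 0.654 and 0.862).

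Isl1, the LIM homeodomain gene, had the fewest reads of the members, 52, 15 and 29 counts in the trained and 28, 33 and 32 in the untrained replicates. On the CPM scale these were 2.01, 0.926 and 1.80 against 1.53, 1.98 and 2.04. Here trained replicate 2, not 3, was the lowest library, and without it the log2 fold change went from -0.21 ± 0.33 (SE) to 0.051 (edgeR adjusted p = 0.880 and 0.981). A list of 9 sensory ganglion genes, cells that also express Isl1, summed to 7.05 to 21.3 CPM with training and 7.48 to 47.3 CPM without it. Scn10a and Mrgprd, genes of pain-sensing neurons, were at 0 counts in trained replicate 1 and untrained replicate 1, as were Trpv1 and Mrgprd in trained replicate 2. The part of such cells in the Isl1 level was not tested.

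Esrrb, the gamma motor neuron receptor gene, had the log2 fold change closest to 0 of the 8 members. It was at 10.2, 8.46 and 7.82 CPM with training and 8.63, 9.43 and 9.71 CPM without it, so that the trained libraries held both the highest and the lowest value. Between groups its log2 fold change was -0.065 ± 0.15 (SE), and 0.034 without trained replicate 3 (edgeR adjusted p = 0.921 and 0.955).

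Divided by gene length, the levels of the 8 genes formed 6 steps. Ache had the most, with a mean of 51.2 CPM per kilobase over the 6 libraries, followed by Slc18a3 at 25.8 and Slc5a7 at 13.2 CPM per kilobase. Chodl at 6.01 and Chat at 5.66 came next and could not be ordered, with ranges over libraries of 3.66 to 7.66 and 4.20 to 6.87. Mnx1 at 1.88 (0.938 to 2.61) and Esrrb at 1.49 (1.29 to 1.68) also overlapped, and Isl1 was last at 0.433 CPM per kilobase. The steps between these did not overlap in any library: the transporter that loads vesicles had more reads per kilobase than the choline transporter, and that more than the enzyme that makes the transmitter. Each gene has 1 length in the table, though Chat has 8 annotated transcripts and Slc18a3 has 1. Reads of unspliced Chat RNA from the intron that holds Slc18a3 could be counted to Slc18a3, and their part was not tested.

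Much of the spread lay in 1 library. Trained replicate 3 was the lowest of the 6 libraries in 6 of the 8 members, all but Ache and Isl1, where it was lowest in 21.1% of all genes tested. Its departure from the mean of the 6 libraries, in log2 CPM, was -0.90 for Mnx1, -0.67 for Chodl, -0.59 for Slc5a7, -0.41 for Chat and -0.37 for Slc18a3. In trained replicate 1 the departures of these 5 genes lay between -0.11 and 0.12. Trained replicate 2 stood at -0.27 for Slc5a7 and within 0.13 of the mean for the other 4.

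**Figure D2:**
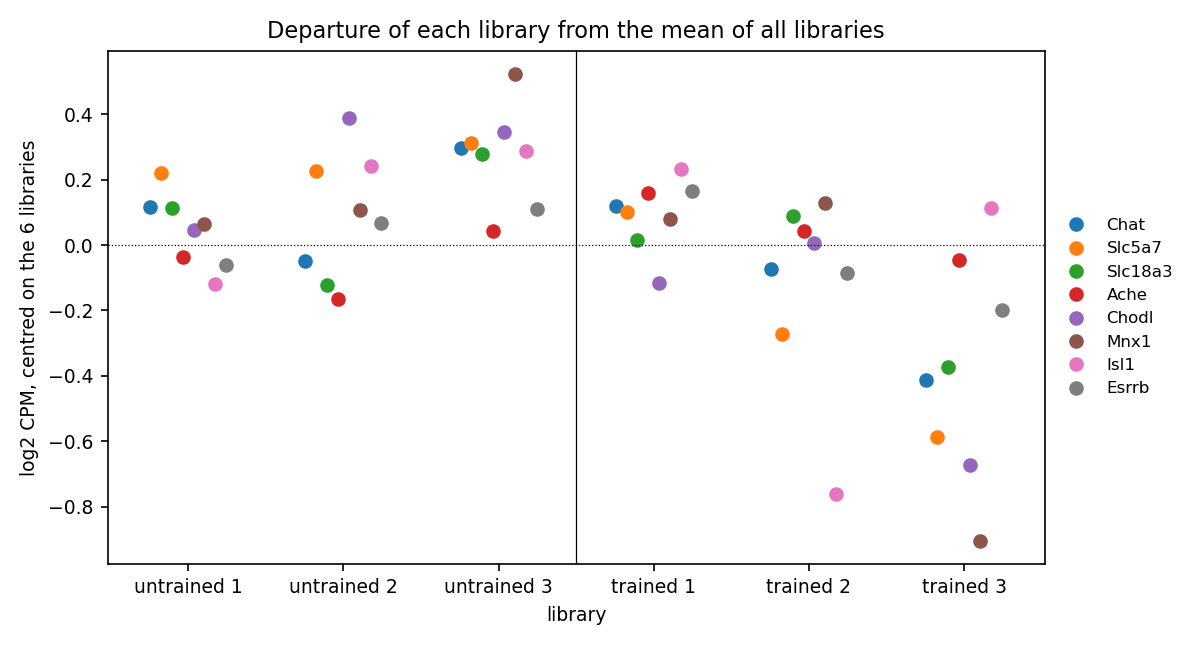
Log2 CPM of the 8 genes in each library, centred on the mean of the 6 libraries, with 1 colour per gene. In trained replicate 3 the points of Mnx1, Chodl, Slc5a7, Chat and Slc18a3 lie at -0.90 to -0.37, while Isl1 is lowest in trained replicate 2 at -0.76.

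Some lists of other neuronal genes also had their lowest sum in trained replicate 3. A list of 12 genes of neurons and their filaments summed to 8620 CPM there, against 10450 to 10520 CPM in the other trained and 9362 to 10830 CPM in the untrained libraries. This library was the lowest in 6 of the 12 genes. Between groups the median log2 fold change of the 12 genes was -0.0039, with 6 genes above and 6 below 0 and 0 past the test. A list of 6 inhibitory interneuron genes summed to 746.4 CPM in trained replicate 3, against 860.9 to 967.6 CPM in the other libraries. For 6 excitatory interneuron genes the sums were 256.3 CPM against 267.2 to 302.5 CPM. Trained replicate 3 was lowest in 3 of the inhibitory and 1 of the excitatory genes. The synaptic gene Snap25 was at 2186 ± 240 CPM with training and 2198 ± 115 CPM without it, and Rbfox3, the NeuN gene, at 150.6 ± 12.8 and 150.7 ± 12.2 CPM.

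Set against this list, a scaling chosen after the values were seen, Slc5a7 and Chodl did not overlap between groups. The share of all genes without overlap on this scale was not computed. The largest parts of the list's sum were Snap25, Nefm, Nefl and Nefh, at means of 2192, 2140, 1376 and 1314 CPM over the 6 libraries. The part of neuron content in the members' levels was not tested. Slc5a7 was at 7.41, 5.76 and 5.61 CPM per 1000 CPM of the neuron list in trained and 9.04, 8.16 and 8.34 in untrained cord. Chodl was at 2.82, 3.09 and 2.33 against 3.55, 4.04 and 3.77 on the same scale. Both had an exact permutation p of 0.10 (two-sided), the smallest that 3 libraries against 3 allow. That value follows from the lack of overlap alone and adds no support. The log2 differences were -0.45 for Slc5a7 and -0.47 for Chodl, close to those on the CPM scale. For Chat, at 2.73, 2.39 and 2.29 against 3.05, 2.44 and 2.99, the groups overlapped.

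Genes that mark position along the cord were given by a list of 11 Hox genes, of which 9 were tested and 0 passed, with 3 positive and 6 negative log2 fold changes and a median of -0.059. Some lay close together across libraries, such as Hoxc8 at 53.2 to 60.6 CPM, Hoxd9 at 32.6 to 40.5 CPM and Hoxc4 at 14.8 to 17.4 CPM. Hoxc10 and Hoxa10 spread more and were highest in trained replicate 2, as was Hoxd10. Hoxc10 read 35.0, 52.25 and 36.8 CPM in trained replicates 1, 2 and 3, against 42.6, 51.1 and 48.0 CPM in untrained ones. Hoxa10 read 31.4, 47.3 and 34.3 CPM against 41.3, 40.25 and 38.0 CPM. Hoxc9, at 25.2 to 28.2 CPM with training and 19.2 to 24.3 CPM without it, and Hoxc6, at 21.18 to 25.9 and 18.9 to 21.15 CPM, did not overlap between groups (edgeR adjusted p = 0.353 and 0.554). Over all genes tested, 16.8% did not overlap in either direction. Hoxd10, a gene of the lumbar cord singled out after its values were seen, varied more, and read 0.620, 9.70 and 0.372 CPM in trained replicates 1, 2 and 3, against 2.95, 7.69 and 4.79 CPM in untrained ones. The 2 libraries lowest in Hoxd10, trained replicates 1 and 3, were the highest and the lowest trained libraries for Chat, Slc5a7, Ache and Esrrb. For Slc18a3, Chodl and Mnx1 the highest trained library was replicate 2, the library highest in Hoxd10. For Isl1 that replicate was the lowest. The part of cord position in the members' levels was not tested.

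**Figure D3:**
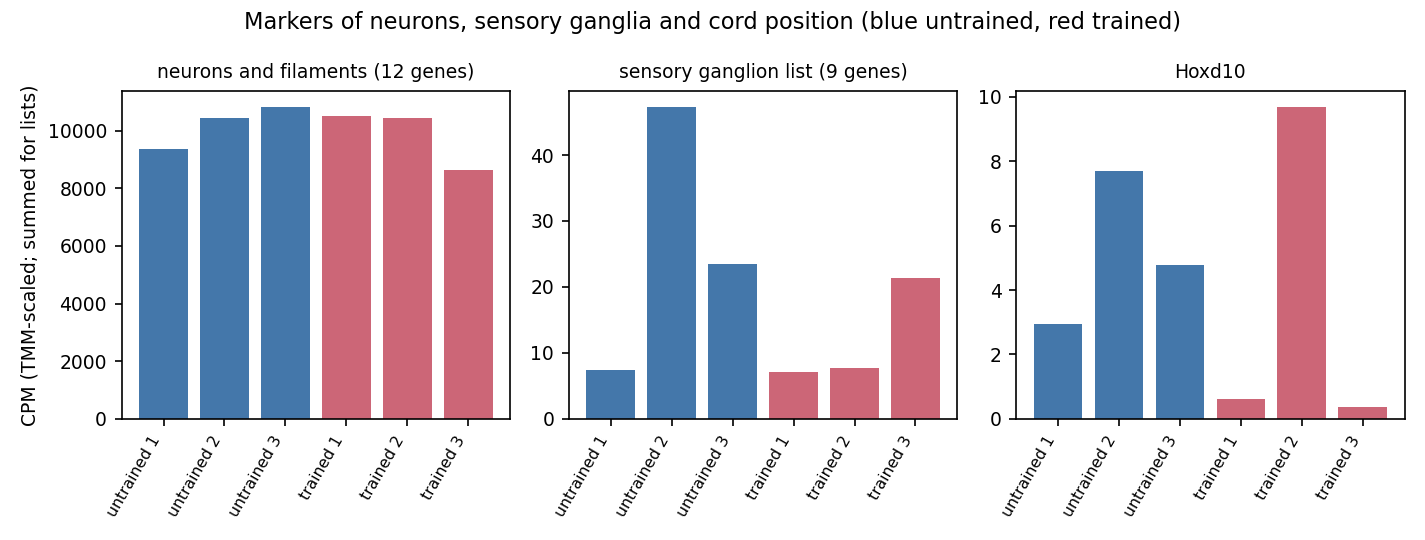
CPM in each library, untrained in blue and trained in red, of the summed list of neurons and filaments, the summed sensory ganglion list and Hoxd10. The neuron list is lowest in trained replicate 3 at 8620 CPM, and Hoxd10 is below 1 CPM in trained replicates 1 and 3.

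The 5 genes whose pattern over the 6 libraries was most like that of Chat were Scn8a, Akain1, Gfod1, Vwc2l and Pcdhb2, out of 9869 candidates. Likeness was the root mean square distance between centred log2 CPM values, which was 0.0523 for Scn8a and 0.0605 for Pcdhb2. Scn8a, the sodium channel of nodes of Ranvier, was at 270.1, 245.3 and 199.0 CPM with training and 258.5, 250.2 and 299.9 CPM without it. All 5 were lowest in trained replicate 3 and highest in untrained replicate 3, as Chat was. Among the members, Slc18a3 stood at rank 35 of the candidates with a distance of 0.0855, Esrrb at rank 520 and Slc5a7 at rank 740. Chodl at rank 2233, Mnx1 at rank 2545 and Isl1 at rank 7091 lay further away, and Ache was not among the candidates. With 6 libraries and this many candidates, close patterns are a description only.

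The other genes of acetylcholine handling were given by a list of 11, of which 10 were tested (all but the choline kinase gene Chkb). None passed over all genes, 2 had positive and 8 negative log2 fold changes, and the median was -0.13. Bche, butyrylcholinesterase, was at 13.7 ± 2.52 CPM with training and 17.1 ± 1.08 CPM without it, a log2 fold change of -0.31 ± 0.14 (edgeR adjusted p = 0.491). Colq, the collagen tail that anchors acetylcholinesterase at the neuromuscular junction, had the opposite sign, at 4.0 ± 0.279 against 2.92 ± 0.458 CPM (0.45 ± 0.22, edgeR adjusted p = 0.517). Pcyt1a, of phosphatidylcholine synthesis, was at 60.3 ± 2.84 and 66.7 ± 3.20 CPM (edgeR adjusted p = 0.529). In each of these 3, picked for the smallest p of the list, the groups did not overlap. They were the only such genes of the 10 tested, 1 higher and 2 lower, where 16.8% of all genes did not overlap in either direction. Slc10a4, a vesicle protein gene of cholinergic and monoaminergic neurons, overlapped at 25.5 ± 1.86 and 28.1 ± 1.41 CPM.

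Of 15 further transcription factor genes used in motor neuron development, 13 were tested (all but Neurog2 and Onecut1). None passed over all genes, 4 had positive and 9 negative log2 fold changes, and the median was -0.083. Pou3f1, a POU factor gene of some motor neurons and also of myelinating glia, had the smallest p. It was at 16.7, 20.9 and 23.1 CPM with training and 14.6, 14.4 and 12.8 CPM without it, higher in each trained library and highest in trained replicate 3, where most members were lowest. Its log2 fold change was 0.53 ± 0.13 (SE; edgeR adjusted p = 0.223). Of the 13 genes, 1 (Pou3f1) lay higher and 0 lower without overlap, where 16.8% of all genes did not overlap in either direction. Runx1, which microglia and other blood-lineage cells also express, was at 6.90 ± 2.79 and 10.5 ± 1.73 CPM (adjusted p = 0.474 in edgeR, and 0.0200 without trained replicate 3). A list of 6 microglial genes summed to 511.8 to 649.4 CPM with training and 614.6 to 725.7 CPM without it, and its part in the Runx1 level was not tested. Onecut2 was at 3.77 ± 0.683 and 3.13 ± 0.363 CPM (edgeR adjusted p = 0.735). Lhx3, the partner of Isl1 in motor neuron specification, was at 2.48 ± 0.104 and 1.96 ± 0.714 CPM (edgeR adjusted p = 0.748).

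A list of 17 further genes that mark motor neuron subtypes had 3 positive and 14 negative log2 fold changes, a median of -0.16 and 0 past the test over all genes. Sv2b, a synaptic vesicle gene, was at 109.3 ± 16.4 CPM with training and 132.8 ± 7.54 CPM without it (log2 fold change -0.28 ± 0.10, edgeR adjusted p = 0.398), and its groups did not overlap. Of the 17 genes, 1 lay higher and 3 lower without overlap, where 16.8% of all genes did not overlap in either direction. Mmp9, a metalloproteinase gene of fast motor neurons like Chodl, was at 14.4, 14.6 and 9.31 CPM with training and 14.9, 13.9 and 17.1 CPM without it, low only in trained replicate 3. Esrrg, the gamma motor neuron relative of Esrrb, was at 60.5, 53.7 and 44.1 against 59.2, 62.5 and 70.1 CPM (-0.27 ± 0.11, edgeR adjusted p = 0.452). Bcl6, which is not limited to neurons, was at 26.7 ± 2.05 and 32.5 ± 2.14 CPM (edgeR adjusted p = 0.334). Sv2a, linked to slow motor neurons but present in most neurons, was at 448.7 ± 26.4 and 461.3 ± 33.8 CPM.

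**Figure D4:**
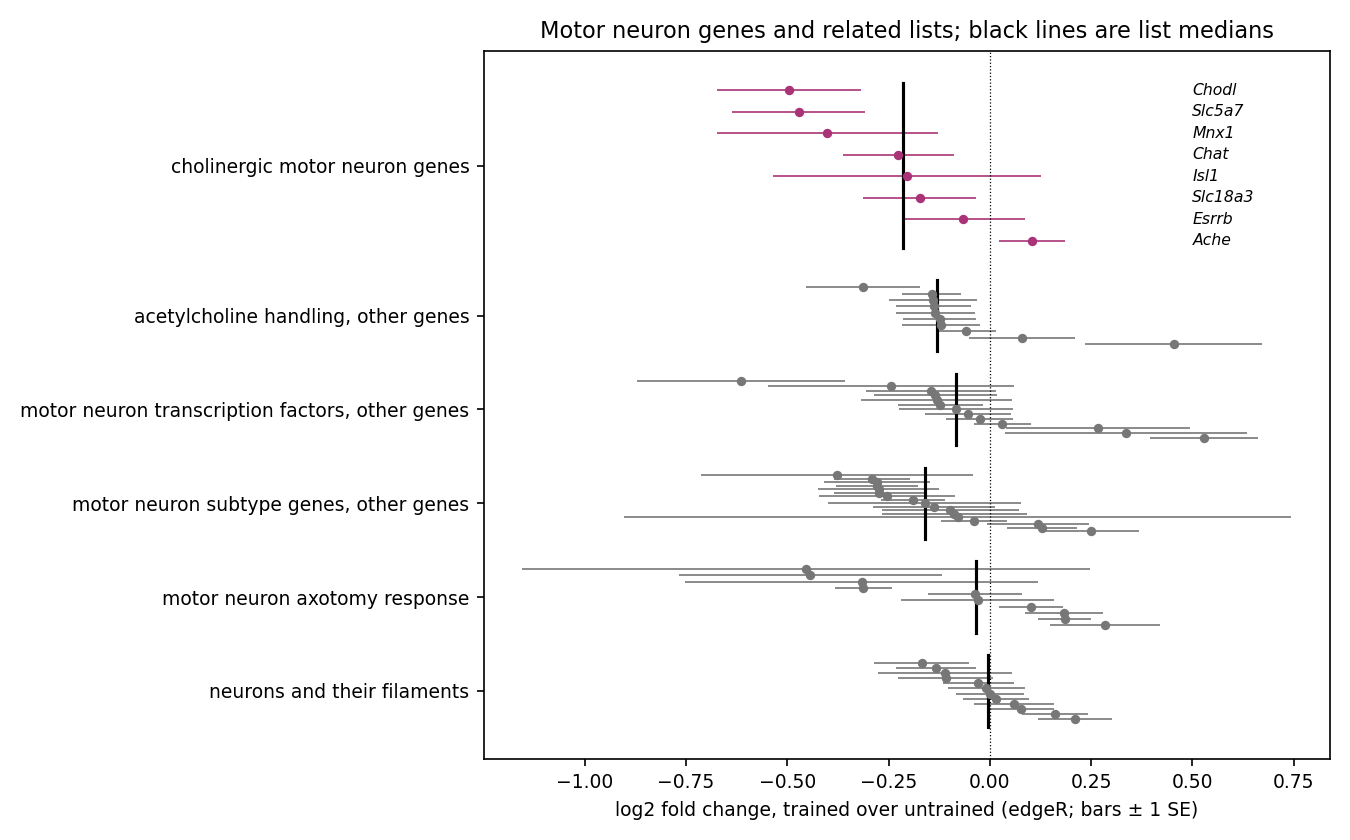
Log2 fold change (trained over untrained) with ± 1 SE from edgeR for the 8 genes and the tested genes of 5 related lists; black lines are list medians. The median is -0.22 for the 8 genes and -0.0039 for neurons and their filaments, and no point passes an adjusted p of 0.05.

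The 10 genes that motor neurons switch on after their axons are cut had a median log2 fold change of -0.034, with 4 positive, 6 negative and 0 past the test over all genes. Jun was at 88.8 ± 4.62 CPM with training and 110.3 ± 5.30 CPM without it, and its groups did not overlap (-0.31 ± 0.07, edgeR adjusted p = 0.209). The growth cone gene Gap43 had the opposite sign, at 159.7 ± 2.98 and 140.5 ± 4.29 CPM (0.18 ± 0.07, edgeR adjusted p = 0.374). Sox11 was at 11.3 ± 0.741 and 9.30 ± 0.689 CPM (edgeR adjusted p = 0.514). Of the 10 genes, 2 lay higher and 1 lower without overlap, where 16.8% of all genes did not overlap in either direction. Atf3, the injury transcription factor gene, was at 6.62, 7.41 and 15.0 CPM in the trained replicates, against 13.7, 14.4 and 11.05 CPM in untrained ones. Jun, Atf3, Sprr1a and Runx1 passed in edgeR without trained replicate 3 (adjusted p = 0.0415, 0.0194, 0.0480 and 0.0200), all lower in the 2 trained libraries left. In that setting 221 of 17181 genes passed. Bulk cord does not show which cells the reads of the axotomy list came from, and the part of motor neurons in their levels was not tested.

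**Figure D5:**
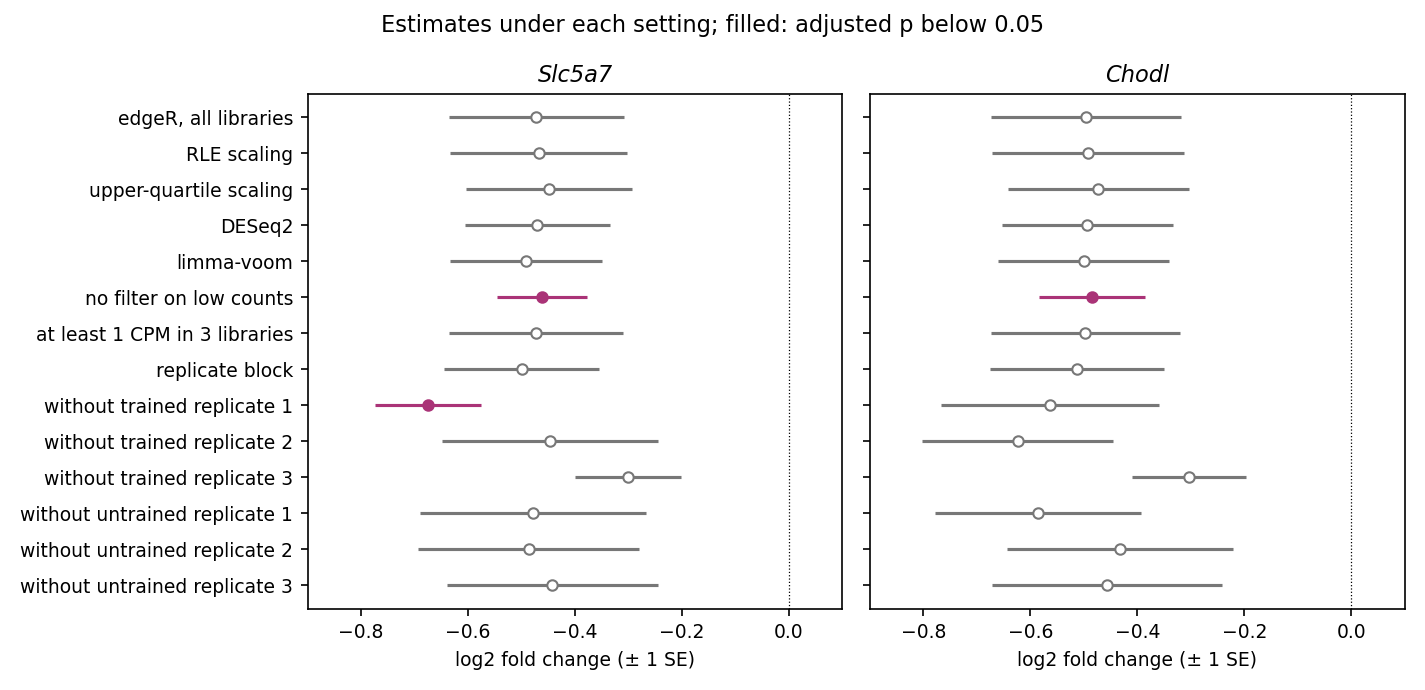
Log2 fold change of Slc5a7 and Chodl (± 1 SE) under each setting, with filled points where the adjusted p was below 0.05. All estimates are negative, from -0.67 to -0.30 for Slc5a7 and from -0.62 to -0.30 for Chodl, and the smallest in size for each is without trained replicate 3.

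The call on these 2 genes differed between settings. Without a filter on low counts edgeR called both, Slc5a7 with an adjusted p of 5.79e-05 and Chodl with 0.000494. The log2 fold changes were nearly the same, at -0.46 and -0.49, but the SEs were 0.085 and 0.099. That setting called more genes in general, 276 of 30362, against 10 of 16909 with the filter. DESeq2 gave adjusted p-values of 0.0806 and 0.165, and limma-voom 0.355 and 0.367.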

How the data were processed

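Total RNA of injured mouse spinal cord was sequenced in 6 libraries, and the table the authors deposited holds unnormalized counts by Ensembl gene with symbols, positions and lengths. Per the submitters' processing notes, Bowtie (0.12.2) and the genome releases mm8 and mm9 were involved, in roles left unsaid. How reads were counted, and whether by strand, is not given in the sources used here, so genes that overlap on opposite strands may not be separable. Of 54532 gene IDs, 54409 were found in GENCODE M21 (GRCm38), 98.3% of them with the same ends, as were all 8 members.

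The test was that of edgeR (version 4.0.16, R 4.3.3; TMM, filterByExpr by group, robust quasi-likelihood fit, group as the only term, Benjamini-Hochberg adjustment over 16909 genes, threshold 0.05). Each SE is the absolute log2 fold change over the square root of F. Levels per kilobase use the table's gene lengths. In data simulated from these libraries, with 16671 genes, the test called 49% of 100 genes changed 1.5-fold and 73% of 100 changed 2-fold. The simulation drew each count independently from the fitted spread of its gene, with no effect shared by the genes of a library. It also held more changed genes than the 10 called here, so these shares may be too high for the real libraries. Other settings tried were DESeq2 1.42.0, limma-voom (limma 3.58.1), scaling by RLE or upper quartile, other filters, a replicate block and leaving out each library. No 2 libraries agreed within sampling noise (chi-square per degree of freedom 5.89 or more). The members and lists were chosen with earlier results of these data known. Genes named were the members, the 3 of smallest p in each list and the 5 nearest to Chat (mean of at least 1 CPM, centred SD at least 0.5 times that of Chat); others were named after their values were seen. Promoter windows, found for all 8 members, were cut to the bases before the gene's span. Single values of some listed genes are not reported here.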

Additional observations from a re-analysis of the deposited data

How the results depend on the processing

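The number of genes past the test moved from 10 to 90 in DESeq2, 276 without a filter on low counts and 5 with the replicate block, and ranged from 4 to 221 when 1 library was left out, lowest without trained replicate 2, highest without trained replicate 3 and at 21 without trained replicate 1. Of the members, 0 passed, 2 without the filter (Slc5a7 and Chodl) and 0 to 1 with 1 library left out (Slc5a7 without trained replicate 1). Of the listed related genes, 0 passed, 2 without the filter (Jun and Pou3f1) and 0 to 4 with 1 library left out. With 1 library left out, the log2 fold change ranged from -0.44 to 0.051 for Isl1, positive without trained replicate 2, and from -0.19 to 0.034 for Esrrb, positive without trained replicate 3. The other 6 members kept their sign under all 13 other settings. Replicate numbers are shared between groups, but same-numbered libraries did not vary together (r across genes -0.17, -0.086 and -0.13), so the block rests on a number alone. At 1.58 to 1.85 CPM on average, Isl1 is limited by depth.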
